A study of Mus musculus with 12 samples.

Results

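The Notch genes described here are 10 of the 29454 genes in a table of hippocampal RNA from mouse pups: the receptors Notch1, Notch2 and Notch3, the ligands Dll1 and Jag1, the DNA-binding partner Rbpj and the effectors Hes1, Hes5, Hey1 and Hey2. They were chosen by symbol as a known pathway, and each symbol occurs once in the table. The table holds 12 libraries in 3 groups of a C57/BL6 background, all described as littermates. The 3 WT libraries carry no transgene. The 3 CAMK libraries carry CaMKIIα-tTA, a driver of the tetracycline transactivator whose promoter is active in forebrain neurons. The 6 CX3CL1-ct libraries carry both that driver and Tg-CX3CL1-ct, which encodes the C-terminal end of the chemokine CX3CL1, a membrane protein of neurons, so the transgene is never seen without the driver. The age is postnatal day 4 in the sample labels but postnatal day 0 in the design text of the series. The labels name no sex or litter for any library and do not say whether each library is a separate pup or a pool, so a p-value here covers only the spread from library to library, which may be technical.

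Notch receptors sit in the membrane of a cell and are activated by Delta-like or Jagged ligands on its neighbour. Proteases then free the intracellular part of the receptor, which enters the nucleus, joins RBPJ on DNA and turns on Hes and Hey genes, whose products are basic helix-loop-helix repressors. In the developing hippocampus this pathway is known for keeping radial glia and neural stem cells from becoming neurons too early, and in blood vessels the same genes shape arterial endothelium and mural cells.

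The effectors Hes5 and Hey2 had the libraries farthest from the rest in these data, so the 250 bases before their start sites are shown, 5′ to 3′, from RefSeq on GRCm38.p6. Capitals mark TGGGAA, the core of the sequence that RBPJ binds, or its reverse complement TTCCCA. The Hes5 window is chr4:154960673-154960922 on the plus strand and the Hey2 window is chr10:30842784-30843033 on the minus strand.
Hes5: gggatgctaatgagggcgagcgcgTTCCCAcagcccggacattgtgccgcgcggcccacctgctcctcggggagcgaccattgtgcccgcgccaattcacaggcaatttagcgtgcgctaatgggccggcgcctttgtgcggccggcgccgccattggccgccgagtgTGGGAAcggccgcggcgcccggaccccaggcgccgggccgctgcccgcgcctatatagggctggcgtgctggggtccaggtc
Hey2: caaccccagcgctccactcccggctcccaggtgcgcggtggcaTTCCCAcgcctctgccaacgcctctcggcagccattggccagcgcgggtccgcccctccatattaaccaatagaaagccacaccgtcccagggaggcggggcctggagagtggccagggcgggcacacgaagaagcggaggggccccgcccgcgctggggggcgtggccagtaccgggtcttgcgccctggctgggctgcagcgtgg
The Hes5 window held 2 matches, from -226 to -221 and from -82 to -77 relative to the start site, and the Hey2 window held 1, from -207 to -202. Of 32851 promoter windows of this length, 21.6 percent held at least 1 match on either strand and 2.77 percent held at least 2. A promoter window was found for 8 of the 10 genes. The only other gene of these with a match was Rbpj itself. A match is a run of letters and does not show that RBPJ binds there.

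The libraries gave an estimated 12300000 to 16200000 fragments each, and 15318 to 15861 genes reached 1 FPKM, a unit in which fragments are divided by transcript length and library total. Cx3cl1, the gene the transgene is derived from, stood at 38.6 to 42.4 FPKM in WT, 34.7 to 41.6 in CAMK and 33.5 to 48.4 in CX3CL1-ct, with overlapping groups. Libraries CX3CL1-ct 1, 2 and 3 were close to each other. The median squared difference between their fragment numbers was 2.57 to 3.62 times what counting alone gives, against 5.62 to 17.1 times for the other pairs of that group, while WT 2 and 3 stood at 3.12 and CAMK 2 and 3 at 3.29. No pair was within counting noise. All 6 hippocampal neuron markers were above 1 FPKM on average, led by Neurod6. Their sum, most of it Neurod6, was 91.9 FPKM in CX3CL1-ct 5 against 174 to 259 in the other libraries, although Wfs1, of the same list, was highest in CX3CL1-ct 5. The other 5 markers, without Neurod6, were each lower in every CAMK library than in every WT library, as Zbtb20 was with means of 35.03 and 62.7 FPKM. The sum of 7 striatal markers was 129 FPKM in CX3CL1-ct 5, 203 in WT 2 and 143 in WT 3, and at most 40.0 elsewhere. The sum of 5 thalamic markers, of which Gbx2 is listed at 0 in at least 1 library, was 86.1 in CX3CL1-ct 5, 83.7 in CAMK 2 and 65.1 in CAMK 3, and at most 35.4 elsewhere. In whole tissue, fewer cells of a type and less RNA per cell cannot be told apart.

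All 10 genes were above 1 FPKM in all 12 libraries. FPKM is a level per length, so the genes can be set beside each other. Hes5 was the highest, with a mean of 17.3 FPKM over the 12 libraries, and Hey1 followed with 10.7. Notch2 (8.07), Notch1 (7.89) and Rbpj (7.02) came next, then Hes1 (5.74), Dll1 (5.66) and Notch3 (4.78), and Jag1 (3.43) and Hey2 (2.85) were lowest. Every Hes5 value lay above every value of the other 9 genes. The ranges of Hey1 and Notch2, and of each neighbouring pair from there down to Notch3, overlapped, so the order within that stretch is not fixed by these libraries. Jag1 stood below Notch3 in every library, and the ranges of Jag1 and Hey2 overlapped. An estimated 112 to 374 fragments lay behind a value of Hey2 and 1220 to 2030 behind one of Notch1, so counting alone gives an error of 9.46 percent for the lowest Hey2 value and 2.22 percent for the highest Notch1 value. These estimates cover counting error only.

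**Figure D1:**
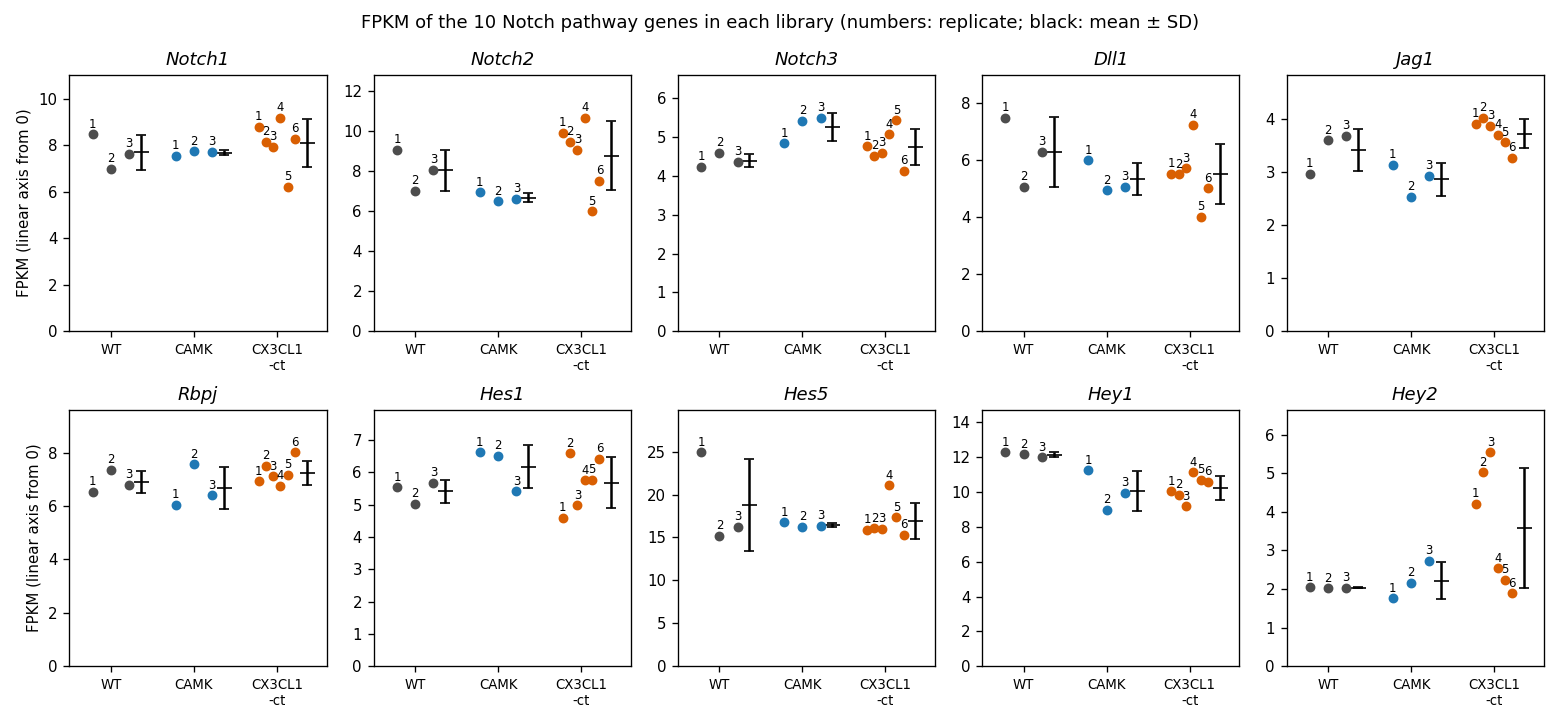
FPKM (y axis, linear from 0) of the 10 Notch genes in each library (points, numbered by replicate) of the 3 groups (x axis), with the mean and SD of each group in black. CX3CL1-ct 1, 2 and 3 sit at 4.20 to 5.54 for Hey2, above all other libraries, and the 3 WT libraries sit above all others for Hey1.

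Among the receptors, none passed the test in any comparison. Notch1 (chromosome 2, 26457903 to 26516663, mm10), the receptor best known in neural stem cells, stood at 8.47, 6.99 and 7.64 FPKM in WT 1, 2 and 3. It stood at 7.54, 7.74 and 7.73 in CAMK 1, 2 and 3, and at 6.21 to 9.19 with a median of 8.21 in CX3CL1-ct. The CAMK values lay inside the WT range, and CX3CL1-ct spanned more than both, with CX3CL1-ct 5 the lowest library of all. The log2 difference of Notch1 was 0.06 (95% interval -0.16 to 0.28, limma) between CX3CL1-ct and CAMK, 0.06 (-0.16 to 0.27) between CX3CL1-ct and WT and 0.00 (-0.25 to 0.25) between CAMK and WT. These differences are of log2(FPKM + 1), a scale that understates the change of low genes.

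Notch2 (chromosome 3, 98013527 to 98150361), a receptor of radial glia and of many other cells, stood at 9.07, 7.02 and 8.07 FPKM in WT 1, 2 and 3 and at 6.94, 6.50 and 6.62 in CAMK 1, 2 and 3. In CX3CL1-ct 1 to 6 it stood at 9.92, 9.46, 9.07, 10.7, 6.01 and 7.53. Every CAMK library was thus below every WT library, 5 of 6 CX3CL1-ct libraries were above every CAMK library, and CX3CL1-ct 5 was below all others. Means were 8.05 ± 1.03 (SD, n = 3) in WT, 6.69 ± 0.227 (n = 3) in CAMK and 8.78 ± 1.72 (n = 6) in CX3CL1-ct. Between CX3CL1-ct and CAMK the log2 difference was 0.33 (SE 0.14), with an unadjusted p of 0.0399 and an adjusted p of 0.774 in limma. With CX3CL1-ct 1, 2 and 3 left out it was 0.21. Notch1 and Notch2 varied together over the 12 libraries (Pearson r = 0.826, Spearman rho = 0.79, as a description), and Notch2 and Dll1 did so by r = 0.716 and rho = 0.657. All 3 genes were lowest in CX3CL1-ct 5, where 3 of the 6 hippocampal neuron markers (Zbtb20, Prox1 and Neurod6) were lowest too and the striatal and thalamic sums high. The part of those tissues in the values was not tested.

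Notch3 (chromosome 17, 32120820 to 32166852), the receptor known from mural cells of vessels, stood at 4.23, 4.58 and 4.36 FPKM in WT 1, 2 and 3 and at 4.83, 5.40 and 5.49 in CAMK 1, 2 and 3. CX3CL1-ct ranged from 4.12 to 5.42 with a median of 4.67. Every CAMK library stood above every WT library, while CX3CL1-ct overlapped both. The log2 difference between CAMK and WT was 0.21 (SE 0.09, unadjusted p = 0.0377, adjusted p = 0.371 in limma). The 3 highest libraries, CAMK 3, CX3CL1-ct 5 and CAMK 2, were those with the 3 highest sums of thalamic markers, and Ntng1, a netrin-like axon guidance gene, had the pattern most like that of Notch3. Ntng1 stood at 19.2 FPKM in CAMK 2, 16.3 in CAMK 3 and 13.3 in CX3CL1-ct 5, and at 5.83 to 10.5 elsewhere. The 8 mural cell markers, all detected, summed to 82.5 to 87.8 FPKM in CAMK, 70.9 to 80.9 in WT and 75.7 to 123 in CX3CL1-ct. Of the 8, Vtn and Acta2 were higher in every CAMK library than in every WT library, and the other 6, Rgs5 and Pdgfrb among them, overlapped. The part of either cell population in the Notch3 values was not tested.

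As a share of the 3 receptors together, Notch1 held 35.2 to 41.5 percent over the 12 libraries. Notch2 held 33.1 to 35.9 percent in CAMK, 37.7 to 41.6 in WT and 34.0 to 42.9 in CX3CL1-ct. CX3CL1-ct 1 to 4 all lay between 42.0 and 42.9 percent, and the 3 genes' summed level ran from 17.6 FPKM in CX3CL1-ct 5 to 24.9 in CX3CL1-ct 4. The ratio of Notch2 to Notch1 was below 1 in every CAMK library (0.841 to 0.920) and above 1 in every WT library (1.004 to 1.07). It was 1.13 to 1.16 in CX3CL1-ct 1 to 4 and 0.967 and 0.912 in CX3CL1-ct 5 and 6, so CX3CL1-ct lay on both sides.

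Of the ligands, Dll1 (chromosome 17, 15367354 to 15376872), which neuronal progenitors present to radial glia, stood at 7.49, 5.07 and 6.29 FPKM in WT 1, 2 and 3. It stood at 6.00, 4.95 and 5.07 in CAMK 1, 2 and 3, and at 4.02 to 7.24 with a median of 5.51 in CX3CL1-ct. All 3 groups overlapped. The 95% interval of the log2 difference (limma) ran from -0.28 to 0.33 for CX3CL1-ct against CAMK, from -0.48 to 0.14 for CX3CL1-ct against WT and from -0.55 to 0.17 for CAMK against WT. The gene most like Dll1 over the 12 libraries, of 11440 with a mean FPKM of at least 2, was Gfap, an intermediate filament of astrocytes and stem cells (r = 0.970, rho = 0.972). Gfap ran from 25.6 FPKM in CX3CL1-ct 5 to 66.5 in CX3CL1-ct 4, with 62.5 in WT 1, and Dll1 too was lowest in the first of these and highest in WT 1 and CX3CL1-ct 4.

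Jag1 (chromosome 2, 137081456 to 137116644), the Jagged ligand of vessels and of sensory and stem cell niches, stood at 2.97, 3.59 and 3.68 FPKM in WT 1, 2 and 3 and at 3.14, 2.53 and 2.92 in CAMK 1, 2 and 3. CX3CL1-ct 1 to 6 stood at 3.90, 4.02, 3.87, 3.70, 3.56 and 3.27. All 6 CX3CL1-ct libraries were above every CAMK library, and 4 of them were above every WT library. The CX3CL1-ct mean was 3.72 ± 0.275 (SD, n = 6), beside 2.86 ± 0.310 (n = 3) for CAMK and 3.41 ± 0.387 (n = 3) for WT. The log2 difference between CX3CL1-ct and CAMK was 0.29 (SE 0.09, 95% interval 0.10 to 0.48), with an unadjusted p of 0.00532 and an adjusted p of 0.725 in limma, so it did not pass over all genes. Its rank by p was 104 of 16503 genes. Over the alternatives run for it the difference stayed between 0.22, with CX3CL1-ct 1, 2 and 3 left out, and 0.37, with a pseudocount of 0.1, and the adjusted p between 0.160 and 1. The 6 meningeal markers summed to 27.1 to 36.6 FPKM in WT, 38.7 to 45.2 in CAMK and 42.0 to 87.4 in CX3CL1-ct, and the 8 endothelial ones to 61.6 to 85.3, 74.5 to 94.0 and 70.0 to 104. Their part in the Jag1 values was not tested. The ratio of Dll1 to Jag1 was 1.41 to 2.52 in WT, 1.74 to 1.96 in CAMK and 1.13 to 1.96 in CX3CL1-ct.

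Rbpj (chromosome 5, 53466152 to 53657362), which binds DNA for all Notch receptors and represses the same genes in their absence, varied least of the 10, with a coefficient of variation of 7.84 percent over the 12 libraries. It stood at 6.54, 7.35 and 6.80 FPKM in WT 1, 2 and 3, at 6.06, 7.57 and 6.40 in CAMK 1, 2 and 3, and at 6.75 to 8.01 with a median of 7.13 in CX3CL1-ct. The groups overlapped in every comparison. The limits of the 95% intervals of its log2 difference (limma) lay between -0.24 and 0.27 over the 3 comparisons.

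**Figure D2:**
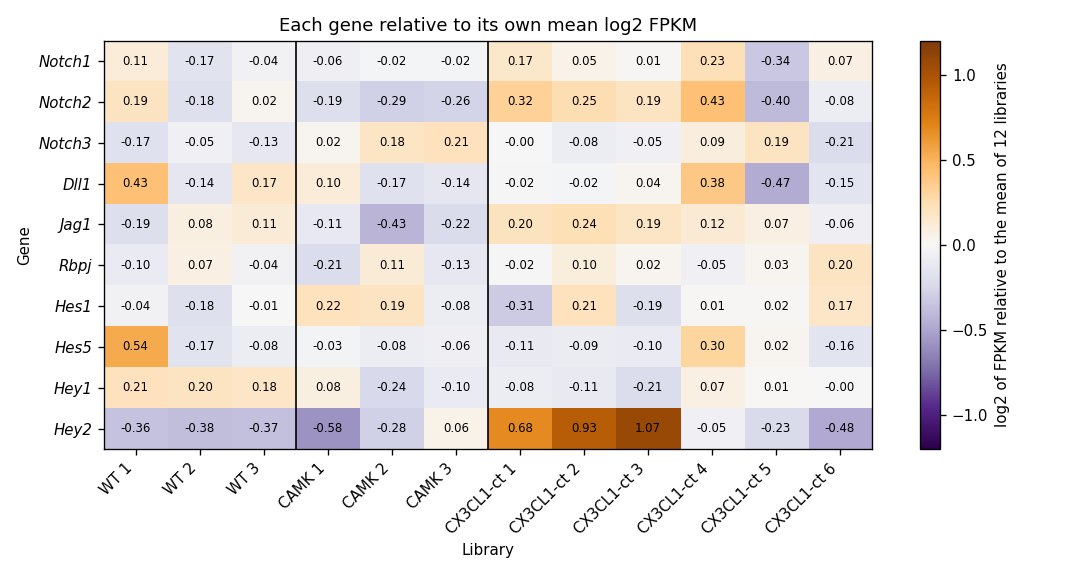
Level of each gene (rows) in each library (columns) as log2 FPKM relative to the gene's own mean over the 12 libraries, with lines between WT, CAMK and CX3CL1-ct. Hey2 in CX3CL1-ct 1, 2 and 3 carries the largest values, and CX3CL1-ct 5 is negative for Notch1, Notch2 and Dll1.

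Of the Hes effectors, Hes1 (chromosome 16, 30064384 to 30067796), a repressor of proneural genes in radial glia, stood at 5.54, 5.03 and 5.68 FPKM in WT 1, 2 and 3. It stood at 6.62, 6.51 and 5.41 in CAMK 1, 2 and 3 and at 4.59 to 6.59 with a median of 5.76 in CX3CL1-ct. All groups overlapped. CX3CL1-ct 1 and 3, at 4.59 and 4.99, were the lowest libraries, although CX3CL1-ct 2, otherwise close to them, was among the highest.

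Hes5 (chromosome 4, 154960923 to 154962371), the effector most tied to Notch activity in neural stem cells, stood at 24.9, 15.2 and 16.2 FPKM in WT 1, 2 and 3. It stood at 16.8, 16.2 and 16.4 in CAMK 1, 2 and 3 and at 15.9, 16.0, 16.0, 21.1, 17.3 and 15.3 in CX3CL1-ct 1 to 6. In 10 of 12 libraries it thus lay between 15.2 and 17.3, and WT 1 and CX3CL1-ct 4 stood above. The same 2 libraries were the highest for Dll1. The log2 difference of Hes5 was -0.12 (95% interval -0.41 to 0.18, limma) between CX3CL1-ct and WT and -0.15 (-0.49 to 0.19) between CAMK and WT, and without WT 1 both turned positive, to 0.09 and 0.06. Between CX3CL1-ct and CAMK it was 0.03 (-0.26 to 0.33). Radial glia markers, of which 8 of 8 were detected, summed to 874 FPKM in WT 1 and 966 in CX3CL1-ct 4, inside the range of 739 to 1076 of the other libraries, and most of that sum is Fabp7. Of the same list, Hopx and Vim were highest in WT 1 and CX3CL1-ct 4. Hopx stood there at 35.03 and 30.8 FPKM (at most 26.4 elsewhere) and Vim at 60.2 and 66.6 (at most 58.4). The other 6 markers of the list did not share this, and Sox2 in WT 1 (28.0) was below WT 2 and WT 3. The sum of the 6 neurogenic progenitor markers was also highest in these 2 libraries (48.0 and 47.9, at most 43.9 elsewhere). The sum of choroid plexus markers, most of it Ttr, was highest in WT 1, at 2316 FPKM, and stood at 492 in CX3CL1-ct 4. Otx2, of the choroid plexus list, was highest in CX3CL1-ct 5 (9.21, beside 4.02 in WT 1). The part of these cells in the Hes5 values was not tested.

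Hey1 (chromosome 3, 8663359 to 8667256), a Hes-related repressor of neural progenitors and endothelium, stood at 12.3, 12.2 and 12.0 FPKM in WT 1, 2 and 3 and at 11.2, 8.99 and 9.94 in CAMK 1, 2 and 3. In CX3CL1-ct it ran from 9.17 to 11.1 with a median of 10.3. All 9 libraries with the driver were below all 3 WT libraries, while CX3CL1-ct lay within the range of CAMK. Means were 12.1 ± 0.147 (SD, n = 3) in WT, 10.1 ± 1.13 (n = 3) in CAMK and 10.2 ± 0.702 (n = 6) in CX3CL1-ct. The log2 difference was -0.23 (SE 0.07, unadjusted p = 0.00939, adjusted p = 0.233 in limma) between CX3CL1-ct and WT and -0.25 (SE 0.08, unadjusted p = 0.0113, adjusted p = 0.244) between CAMK and WT. These 2 comparisons share the WT libraries. Neither passed over all genes in any alternative run, where the lowest adjusted p was 0.0823 and 0.120. Proliferation markers, all 6 of them detected, had a similar order of groups: they summed to 40.5 to 48.3 FPKM in WT, 26.9 to 30.0 in CAMK and 30.4 to 38.6 in CX3CL1-ct. The 8 endothelial markers did not have this order, with sums of 61.6 to 85.3 in WT, 74.5 to 94.0 in CAMK and 70.0 to 104 in CX3CL1-ct. Markers of other lists, such as Foxj1 and Sox9, were also lower in every CAMK library than in every WT library. Others, such as Cdh5 and Tek, were higher. The part of any of these cells in the Hey1 values was not tested.

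Hey2 (chromosome 10, 30832359 to 30842801), a close relative of Hey1 known from arterial endothelium, heart and inner ear, varied most of the 10, with a coefficient of variation of 46.0 percent. It stood at 2.05, 2.02 and 2.04 FPKM in WT 1, 2 and 3 and at 1.76, 2.16 and 2.73 in CAMK 1, 2 and 3. In CX3CL1-ct 1, 2 and 3 it stood at 4.20, 5.02 and 5.54, and in CX3CL1-ct 4, 5 and 6 at 2.54, 2.25 and 1.89. The first 3 of these libraries were above all others in the study, and the last 3 lay inside the range of CAMK. The mean of all 6 was 3.57 ± 1.55 (SD, n = 6) against 2.03 ± 0.0159 (n = 3) in WT and 2.22 ± 0.490 (n = 3) in CAMK. The log2 difference was 0.45 (SE 0.25, 95% interval -0.09 to 0.98, adjusted p = 0.787 in limma) against CAMK and 0.52 (SE 0.25, -0.02 to 1.06, adjusted p = 0.420) against WT. With CX3CL1-ct 1, 2 and 3 averaged to 1 library it was 0.23 and 0.30, and with them left out 0.01 and 0.08.

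The genes most like Hey2 over the 12 libraries were Shisa2, a modulator of Wnt and FGF receptors (r = 0.961, rho = 0.853), and Apold1, a gene of endothelial cells (r = 0.953, rho = 0.825). Apold1 stood at 8.99, 8.03 and 8.05 FPKM in CX3CL1-ct 1, 2 and 3 and at 1.76 to 2.64 in the other 9 libraries. Shisa2 stood at 4.45, 5.14 and 5.72 in the same 3 libraries and at 1.98 to 3.11 elsewhere. The 8 endothelial markers, all detected, summed to 92.1 to 95.5 FPKM in CX3CL1-ct 1, 2 and 3 and to 61.6 to 104 in the others, and the 8 mural markers to 101 to 105 against 70.9 to 123. These 3 libraries were thus within the range of the others for the endothelial list, and above the others except CX3CL1-ct 4 for the mural list. Meningeal markers summed to 67.9 to 69.2 FPKM in them, above the other libraries except CX3CL1-ct 4 at 87.4, where Hey2 was at 2.54. Of the other markers listed, Eomes, a gene of intermediate progenitors, stood at 11.6, 11.4 and 10.9 FPKM in CX3CL1-ct 1, 2 and 3 and at most at 4.05 elsewhere. Pax6, a gene of radial glia, stood at 9.10, 8.12 and 8.44 and at most at 5.74 elsewhere, and Nes at 10.3 to 10.6 and at most at 9.62. The ependymal markers Ccdc153 and Dynlrb2 were lowest in these libraries. The part of any of these cells in the Hey2 values was not tested. The ratio of Hey1 to Hey2 was 5.88 to 6.03 in WT and 3.64 to 6.39 in CAMK. It was 1.66 to 2.39 in CX3CL1-ct 1, 2 and 3 but 4.38 to 5.62 in CX3CL1-ct 4, 5 and 6.

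The patterns most like the other genes' were those of D2hgdh and Dph2 for Notch1 (r = 0.942 and 0.928), Adam12 and Psmg3 for Notch2 (0.976 and 0.960), B3gat2 after Ntng1 for Notch3 (0.908 and 0.909) and Kcnk1 after Gfap for Dll1 (0.951). They were Zfp334 and Dido1 for Jag1 (0.914 and 0.905), Rbm12b1 and Rbm8a for Rbpj (0.902 and 0.872), Tmem230 and Atn1 for Hes1 (0.854 and 0.807), Paqr8 and Psap for Hes5 (0.950 and 0.925) and Ccdc88c and Spata2l for Hey1 (0.922 and 0.909). These are the 2 highest of 11440 correlations for each gene over 12 libraries and are given as a description. Without WT 1 and CX3CL1-ct 4, Paqr8 and Hes5 correlated by 0.640, so that likeness rests largely on these libraries.

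CX3CL1-ct against CAMK is the comparison for the transgene on a background of the driver. Of the 10 genes, limma called 0 at an adjusted p of 0.05, against 0.0606 percent of the 16503 genes tested. At an unadjusted p of 0.05 there were 2, Jag1 and Notch2, both higher in CX3CL1-ct, where 6.37 percent of all genes tested had such a p (5.33 percent higher and 1.04 percent lower). Groups did not overlap for 1 of the 10, Jag1, which was higher, and for 3.3 percent of all genes (2.78 percent higher). The difference was positive for 8 of the 10 (median 0.05) and for 63.2 percent of all genes (median 0.04). With libraries rescaled by median-of-ratios factors it was positive for 5 of the 10 and for 48.4 percent of all genes, and Dll1, Hes5 and Hey1 turned negative.

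CX3CL1-ct against WT is the comparison for both transgenes together. limma called 0 of the 10, against 0.454 percent of all genes, of which 33 were higher and 42 lower in CX3CL1-ct. That split was 21 and 52 with median-of-ratios factors, 17 and 51 with libraries rescaled without small RNA genes, 41 and 32 with a pseudocount of 0.1, and 364 and 176 with the replicate block. At an unadjusted p of 0.05 there was 1 of the 10, Hey1, which was lower in CX3CL1-ct, and 12.3 percent of all genes (8.8 percent higher and 3.49 percent lower). Groups did not overlap for Hey1, which was lower, and for 6.04 percent of all genes (1.38 percent lower). The difference was positive for 7 of the 10 (median 0.06) and for 62.7 percent of all genes (median 0.04). With libraries rescaled without small RNA genes it was positive for 6 of the 10, as Hes1 turned negative.

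CAMK against WT is the comparison for the driver by itself. Striatal sums were high in WT 2 and WT 3 and thalamic sums in CAMK 2 and CAMK 3. The part of tissue content in this comparison was not tested. limma called 0 of the 10, against 0.358 percent of all genes. At an unadjusted p of 0.05 there were 2, Notch3, higher in CAMK, and Hey1, lower in CAMK, and 12.4 percent of all genes (6.6 percent higher and 5.79 percent lower). Groups did not overlap for 3 of the 10: Notch3 was higher and Notch2 and Hey1 were lower in CAMK. For all genes this share was 18 percent (9.22 percent higher and 8.8 percent lower). The difference was positive for 3 of the 10 (median -0.10) and for 50.5 percent of all genes (median 0.00). With median-of-ratios factors it was positive for 4 of the 10, as Notch1 turned positive.

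**Figure D3:**
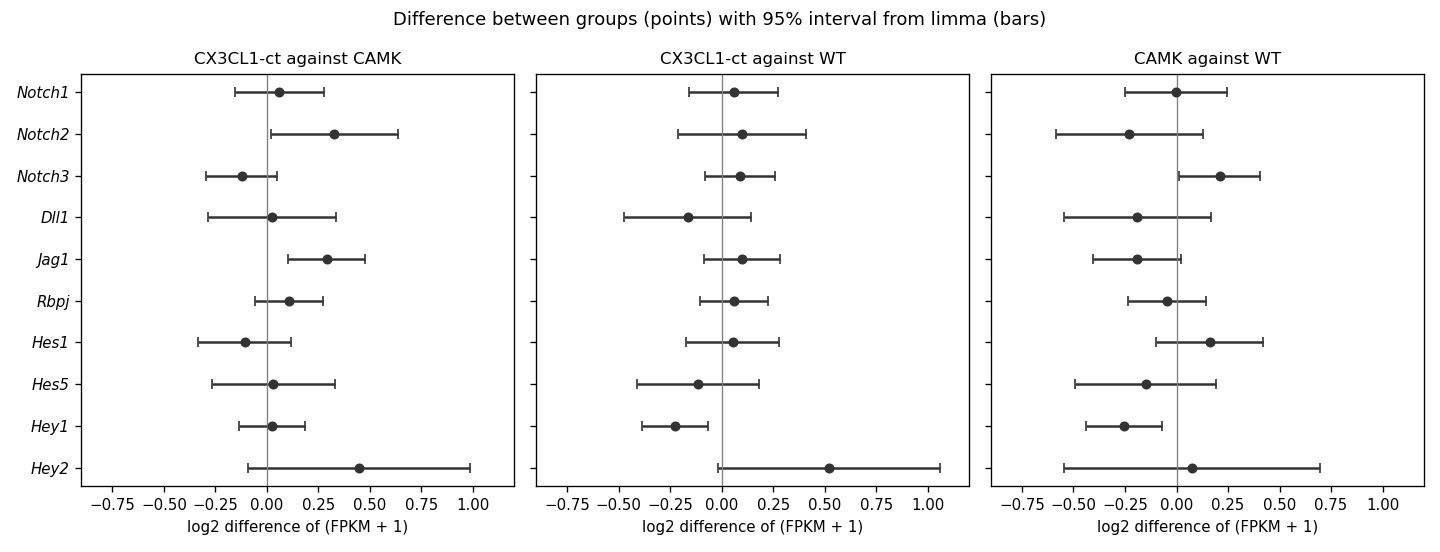
Difference in log2(FPKM + 1) (x axis) of the 10 Notch genes (y axis) between groups, as points with the 95% interval from limma as bars, for the 3 comparisons. Intervals leave out 0, before adjustment, for Jag1 and Notch2 in CX3CL1-ct against CAMK, for Hey1 in both comparisons with WT and for Notch3 in CAMK against WT, and Hey2 has the widest intervals.

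The rest of the pathway was read from a list of 52 genes by role. Of these, 49 passed the filter on low values, and Hes2, Hes3 and Hes7 did not. limma called 0 of the 49 in each comparison. At an unadjusted p of 0.05 there were 4 higher and 0 lower in CX3CL1-ct against CAMK, where all genes gave 5.33 and 1.04 percent. There were 9 and 1 in CX3CL1-ct against WT, where all genes gave 8.8 and 3.49 percent, and 5 and 2 in CAMK against WT, where all genes gave 6.6 and 5.79 percent. The median difference was 0.03, 0.11 and 0.04 in the same order, beside 0.04, 0.04 and 0.00 for all genes tested.

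Among the other ligands and the receptor Notch4, Dner, a neuronal Notch ligand of a less usual type, was the most abundant at 58.3 ± 5.85 FPKM (SD, n = 3) in WT, 73.5 ± 7.50 (n = 3) in CAMK and 70.0 ± 4.24 (n = 6) in CX3CL1-ct. It had the smallest p of the list in both comparisons with WT (adjusted p = 0.172 for CAMK and 0.204 for CX3CL1-ct in limma). Dlk1, a membrane protein that acts on Notch without the usual receptor-binding domain, had the largest negative difference from WT in CX3CL1-ct (-0.68, adjusted p = 0.392). It stood at 1.63 to 2.65 FPKM in WT, 0.371 to 2.24 in CAMK and 0.316 to 2.31 in CX3CL1-ct, so the groups overlapped. Dlk2, its relative, stood at 10.4 to 14.8 FPKM in WT and 14.2 to 17.99 in CAMK (log2 difference 0.40).

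Differences were positive for 8 of 9 proteases that cut Notch and their partners in each CX3CL1-ct comparison (median 0.06 against CAMK and 0.15 against WT). Against CAMK, Psen2 (0.0011) and Aph1a (0.0009) of these were close to 0. For all genes the share was 63.2 percent against CAMK and 62.7 percent against WT with the same scaling. It was 48.4 percent against CAMK with median-of-ratios factors and 46.4 percent against WT when rescaled without small RNA genes. The proteases were not counted under these other scalings, so their count cannot be set beside those 2 shares. Against CAMK, 2 of 6 ligands and 5 of 12 genes of ligand and receptor trafficking were positive. Against WT, 4 of 6 ligands and 11 of 12 trafficking genes were positive, so that lean was not particular to the proteases. Aph1c, a gamma-secretase subunit with a close copy, Aph1b, stood at 1.26 to 1.58 FPKM in CAMK, 1.15 to 2.77 in WT and 1.39 to 3.11 in CX3CL1-ct (log2 difference 0.60 against CAMK, adjusted p = 0.725 in limma). How the deposited values split fragments between Aph1b and Aph1c is not stated, so its level is uncertain. Of the sugar transferases that tune receptors for their ligands, Lfng stood at 8.99 to 10.6 FPKM in WT and 8.05 to 8.996 in CAMK (log2 difference -0.21, adjusted p = 0.321).

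Of 13 nuclear cofactors, 9 were positive in CX3CL1-ct against CAMK, a share near the 63.2 percent of all genes, and 8 were positive in CX3CL1-ct against WT and 5 in CAMK against WT. Snw1, a cofactor of RBPJ and of splicing, stood at 16.5 to 18.3 FPKM in CAMK and 18.4 to 21.4 in CX3CL1-ct, with groups that did not overlap (log2 difference 0.19, SE 0.06, adjusted p = 0.725 in limma). Maml1, a coactivator that joins the RBPJ complex, stood at 2.43 to 3.04 FPKM in CAMK, below all CX3CL1-ct libraries at 3.05 to 3.70. Tle3, a corepressor that Hes proteins recruit, stood at 7.62 to 9.13 FPKM in WT, 10.7 to 14.4 in CAMK and 8.67 to 15.3 in CX3CL1-ct, and Kat2b, an acetyltransferase, at 6.17 to 6.68 in WT and 4.72 to 5.57 in CAMK. Dtx4, a ubiquitin ligase that acts on Notch, stood at 15.4 to 22.4 FPKM in WT and 24.5 to 32.6 in CAMK (log2 difference 0.57, adjusted p = 0.265). Neurl1a, a ubiquitin ligase of ligand trafficking, stood at 14.5 to 16.3 in WT and 11.0 to 18.8 in CX3CL1-ct. The labels do not say that replicate numbers mark pairs, and a pairing of CAMK and WT rests only on correlations in these same data. With the number as a block, Tle3 (adjusted p = 0.0267), Dtx4 (0.0384) and Dlk2 (0.0437) passed for CAMK against WT in limma. The same block raised the calls over all genes from 59 to 490.

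**Figure D4:**
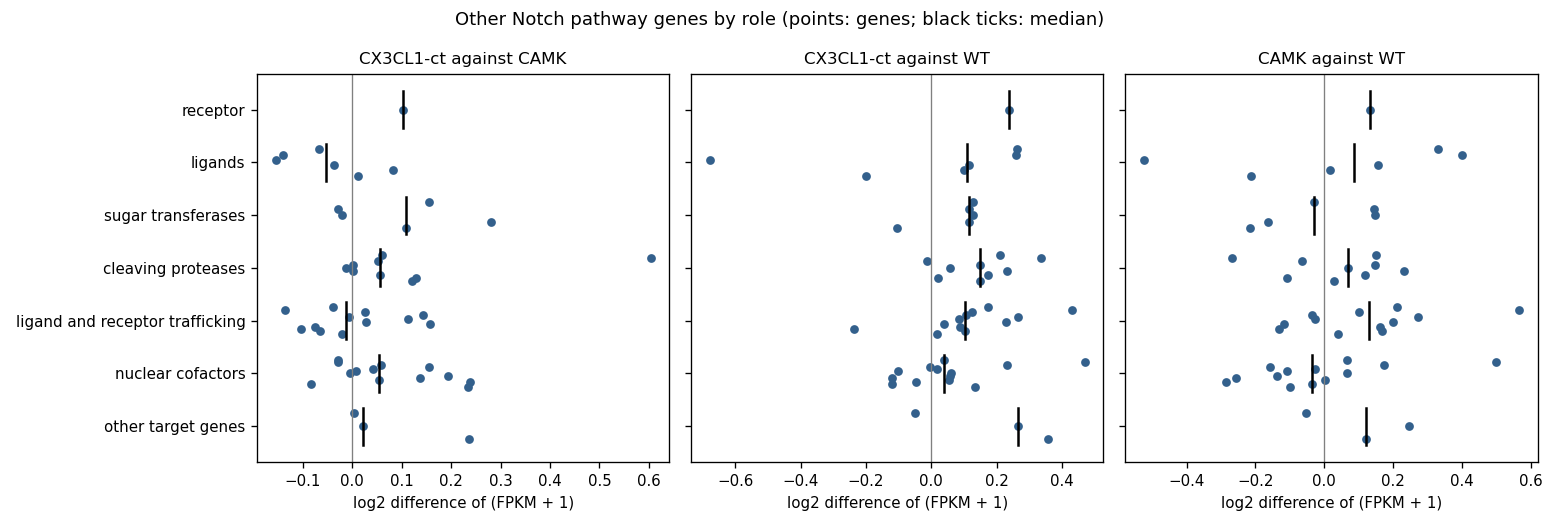
Difference in log2(FPKM + 1) (x axis) of the 49 other Notch pathway genes tested (points), grouped by role (y axis), for the 3 comparisons, with a black tick at each role's median. The proteases lie to the right of 0 in 8 of 9 genes in both CX3CL1-ct comparisons, with medians of 0.06 and 0.15. The trafficking genes lie there in 5 of 12 against CAMK and in 11 of 12 against WT.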

How the data were processed

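The deposited table holds FPKM made by the authors for 29454 genes in 12 libraries. The submitters' processing notes list Cufflinks, Cuffdiff, TopHat, Bowtie and build mm10. Versions, scaling between libraries and use of strand are not given in the sources used here. Per the labels' protocols, total RNA was depleted of ribosomal RNA and made into stranded libraries. Exons of Notch1, Notch3, Dll1 and Hes5 overlap genes on the opposite strand, and those of Notch2 a gene on the same strand, so their values are uncertain by that share. Coordinates come from GENCODE M21 (mm10) and promoter sequences from RefSeq on GRCm38.p6.

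Values were taken as log2(FPKM + 1). A gene was tested where 3 or more libraries reached 1 FPKM (16503 genes). A limma 3.58.1 model (R 4.3.3) held the 12 libraries with a mean for each of the 3 groups and a trended eBayes prior. Two-sided p-values were Benjamini-Hochberg adjusted over these genes, with a threshold of 0.05. The steps were tested on simulated data. Depth was estimated from the value of 1 fragment in single-exon, single-transcript genes (500 to 5000 nt), assuming fragments of 180 nt. Named are the 10 genes, in each comparison the pathway genes with the smallest p in each direction and those past the threshold with the block, and for each of the 10 the 2 most like genes with a mean FPKM of at least 2. Pathway genes named for other reasons were chosen after their values were seen. The members and lists were chosen with earlier results of these data known. Alternatives were a pseudocount of 0.1, no filter, other scalings, a robust prior, only the groups compared, a replicate block, CX3CL1-ct 1 to 3 averaged, and each library left out.

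To check the pairing, each library was set relative to its group mean, and libraries with one number were correlated over genes. CAMK with WT gave 0.236, 0.163 and 0.100, which meets the rule for pairs (over 0.1 in each, the last only just). For CX3CL1-ct with WT the values were 0.114, -0.0622 and 0.0106, and with CAMK 0.110, -0.130 and -0.0912, which do not. CAMK and WT libraries with different numbers gave at most 0.0439. CX3CL1-ct 5, however, gave 0.305 with CAMK 2 and 0.263 with WT 2, more than any libraries with one number. The rule thus does not show that the numbers mark pairs.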

Additional observations from a re-analysis of the deposited data

Results flagged for a closer look

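In 6 CX3CL1-ct libraries, a single library stood far from the other 5, by Dixon's measure of its gap relative to the range, for 3 of 20 quantities examined. Chance flags about 1 in 20 of unrelated quantities. These include shares, ratios and sums of the same genes, so 3 of 20 cannot be set against that rate. Hes5 stood at 21.1 FPKM in CX3CL1-ct 4, and the next library was at 17.3. The share of Notch1 among Notch1, Notch2 and Notch3 was 41.5 percent in CX3CL1-ct 6, and the next was 37.5 percent. The share of Notch3 among the 3 receptors was 30.7 percent in CX3CL1-ct 5, where thalamic and striatal markers were high, and the next was 21.3 percent.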

How the results depend on the processing

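Of 660 values of the 10 genes under 22 alternatives (20 planned, and 2 chosen after seeing the data: CX3CL1-ct 1 to 3 left out, and WT 2, WT 3 and CX3CL1-ct 5 left out, the libraries with the highest striatal sums), 633 kept direction and side of the threshold, 24 changed sign and 3 came to pass it. The cause of these changes was not tested. Some settings leave both group means as they were, such as the robust prior, no filter or a library of the third group left out. Those could not change a sign, so the 633 do not measure how firm the directions are.

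For CX3CL1-ct against CAMK, median-of-ratios scaling gave log2 differences of -0.01441 for Dll1, -0.01227 for Hes5 and -0.0159 for Hey1, and leaving out CX3CL1-ct 1 to 3 gave -0.0073 for Dll1. Against WT, CX3CL1-ct gave -2.009e-05 for Hes1 when rescaled without small RNA genes, -0.02248 for Notch2 without CX3CL1-ct 1 to 3 and -0.0030 for Notch1 without WT 2, WT 3 and CX3CL1-ct 5. CAMK against WT gave 0.0014 for Notch1 with median-of-ratios scaling and 0.01996 for Rbpj without WT 2, WT 3 and CX3CL1-ct 5.

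With each library left out in turn, CX3CL1-ct against CAMK ran from -0.04646 to 0.09819 for Dll1, -0.0294 to 0.05726 for Hes5 and -0.04405 to 0.1026 for Hey1. CX3CL1-ct against WT ran from -0.001268 to 0.1234 for Notch1 and -0.2434 to 0.09446 for Hes5. CAMK against WT ran from -0.06134 to 0.06148 for Notch1, -0.1274 to 0.01256 for Rbpj, -0.2753 to 0.06253 for Hes5 and -0.03852 to 0.1797 for Hey2.

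With the replicate number as a block, CX3CL1-ct 4 to 6 have no partner, so the difference rests on CX3CL1-ct 1 to 3. Of the 10 genes, limma then called 2 for CX3CL1-ct against CAMK, Hey2 (0.88, adjusted p = 0.0207) and Notch2 (0.45, adjusted p = 0.0495), and 1 against WT, Hey2 (0.96, adjusted p = 0.00751). Numbers did not pair CX3CL1-ct with either group. The block also gave -0.04112 for Hes5 and -0.04568 for Hey1 against CAMK and -0.01636 for Hes1 against WT. Of the other pathway genes it called 2 for CX3CL1-ct against WT, Tle3 and Neurl1a, and 3 for CAMK against WT. In the latter the numbers met the rule for pairs, which does not show pairing, and the block called 0 of the 10.

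Counts over all genes moved most. CX3CL1-ct against CAMK gave 171 calls with the block in place of 10. CX3CL1-ct against WT gave 75, and 144 without a filter, 41 with only the groups compared, 540 with the block, 28 with CX3CL1-ct 1 to 3 averaged, 25 with them left out, 10 without WT 2, WT 3 and CX3CL1-ct 5, and 13 (without WT 3) to 158 (without CX3CL1-ct 5) with 1 library left out. CAMK against WT gave 59, and 123, 490, 25, 22 and 8 under the same settings but for the groups compared, which kept it within 1.5 times, and 12 (without WT 3) to 152 (without CX3CL1-ct 6) with 1 library left out. The estimated depth limits Hey2, Hes1 and Jag1 most.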

Other observations

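Heyl, the third Hey gene and one better known from vascular smooth muscle, was chosen after its values were seen. It stood at 2.03, 2.07 and 1.83 FPKM in CX3CL1-ct 1, 2 and 3 and at 1.64, 0.978 and 0.910 in CX3CL1-ct 4, 5 and 6. It stood at 0.823 to 1.06 in WT and 0.967 to 1.34 in CAMK. The 3 libraries highest for Hey2 were thus also the 3 highest for Heyl, while CX3CL1-ct 4 was high for Heyl only.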
